A study of Mus musculus with 18 samples.

Results

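Rn45s and Lars2 are 2 of the 23038 genes listed for sorted mouse haematopoietic stem cells (HSCs), and they were picked out by their gene names in the 2 deposited tables because both had been seen to differ between the genotypes. Rn45s (gene 100861531) is the name given to the precursor of ribosomal RNA, and Lars2 (gene 102436) encodes the leucyl-tRNA synthetase of mitochondria. They are described side by side because reads listed under either name may be ribosomal RNA left in a library of messenger RNA. Since the values below led to the choice of the pair, they are given as a description, without a test.

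The question behind the series was which RNAs of adult HSCs owe their N6-methyladenosine (m6A) to Mettl3, the enzyme that methylates messenger RNA. Mettl3-deficient cells came from C57BL/6 mice of genotype Mx1-cre; Mettl3fl/fl, and the other cells from wild-type (WT) C57BL/6 mice, for which no Cre is labelled. Mice of both genotypes had received 5 intraperitoneal doses of 10 µg pIpC, an inducer of interferon that switches on the Mx1 promoter, and were taken 10 days after the last dose. Mx1-cre acts in many blood cells and in other tissues, so deletion was not restricted to the sorted cells. Adult bone marrow was sorted for the CD150+ CD48- subset of Lineage- Sca1+ cKit+ cells. RNA from 3000 cells was caught on oligo(dT) beads, and each RNA pool has 3 fractions. Mixing with 1.25 µg of antibody to m6A gave the eluted m6A-tagged RNA and the unbound RNA of all washes. The input is the fraction for which no antibody is labelled. Each genotype and fraction is a group of 3 libraries, called biological replicates in the study design, so there are 6 groups and 18 libraries.

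Ribosomal RNA is made by RNA polymerase I in the nucleolus as 1 long precursor, which is cut and modified into the RNAs of both ribosomal subunits. It has no poly(A) tail of the kind that messenger RNA carries, so oligo(dT) beads are used to leave it behind. It also carries m6A, placed in human cells by METTL5 with its partner TRMT112 on the small subunit RNA and by ZCCHC4 on the large subunit RNA, and not by METTL3. Lars2 is transcribed in the nucleus by RNA polymerase II, and its protein loads leucine onto a mitochondrial tRNA. Which bases the reads of either gene covered was not analysed here, so whether the Lars2 reads were ribosomal was not tested.

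Values are RPKM, which divide the reads of a gene by its length in kilobases and by the library's depth in M reads (M, 1e6). Each group has 1 RPKM per gene, the authors' mean of its 3 libraries, so no value has a replicate error, and the 3 fractions of a genotype come from the same RNA pools. Depth worked out from the values was 25.89 to 33.59 M reads per library in Mettl3-deficient m6A-tagged RNA, 12.24 to 27.27 M in Mettl3-deficient unbound RNA and 9.42 to 30.06 M in Mettl3-deficient input. It was 30.32 to 34.99 M in WT m6A-tagged RNA, 24.3 to 27.38 M in WT unbound RNA and 28.33 to 37.22 M in WT input. Mettl3 itself (GRCm38.p6 chromosome 14, 52294841 to 52308741) stood at 17.4, 11.2 and 19.6 RPKM in Mettl3-deficient m6A-tagged, unbound and input RNA, against 36.1, 33.2 and 36.4 RPKM in the WT fractions. It was lower in every fraction, and residual reads were present. All 8 HSC markers of the sort were detected. Their summed level was 785, 1141 and 898 RPKM in Mettl3-deficient m6A-tagged, unbound and input RNA, against 676, 1010 and 819 RPKM in WT. Without Ly6a, which encodes the sort marker Sca1 and is induced by interferon, the sum was 564, 391 and 549.9 RPKM in the Mettl3-deficient fractions, against 552, 815 and 701 RPKM in WT, so it was then lower in Mettl3-deficient unbound RNA and input. Kit, the receptor used in the sort, stood at 9.52 RPKM in Mettl3-deficient unbound RNA, against 138 RPKM in WT unbound RNA (log2 ratio -3.73). Its log2 ratio was -0.71 in m6A-tagged RNA and -0.83 in input. Of the 6 markers averaging 10 RPKM or more, 3 had a ratio above 0 in unbound RNA. There 1 was past 2-fold higher and 2 were past 2-fold lower, as were 19.7% and 22.7% of all genes with that average.

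Rn45s ranked far higher in the libraries of Mettl3-deficient cells than in those of WT cells. It stood at 185 RPKM in Mettl3-deficient m6A-tagged RNA, 1150 RPKM in Mettl3-deficient unbound RNA and 448 RPKM in Mettl3-deficient input. In WT cells it stood at 8.0 RPKM in m6A-tagged RNA, 51.3 RPKM in unbound RNA and 15.5 RPKM in input. Within both genotypes the order was unbound, input, m6A-tagged from high to low. By rank among the 23038 genes, Rn45s was at place 448 in m6A-tagged, 75 in unbound and 109 in input RNA of Mettl3-deficient cells, against 7724, 2296 and 5417 in WT.

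Lars2 spans positions 123366927 to 123462675 of chromosome 9 in GRCm38.p6. Its level was 150.0 RPKM in Mettl3-deficient m6A-tagged RNA, 317 RPKM in Mettl3-deficient unbound RNA and 213 RPKM in Mettl3-deficient input. In WT cells its level was 6.70 RPKM in m6A-tagged RNA, 2.52 RPKM in unbound RNA and 9.09 RPKM in input. The order of the fractions differed between the genotypes, since unbound RNA was the highest column in Mettl3-deficient cells and the lowest in WT cells. Lars2 was at place 624, 448 and 350 of all genes in Mettl3-deficient m6A-tagged, unbound and input RNA, against 8210, 7639 and 6997 in WT.

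**Figure D1:**
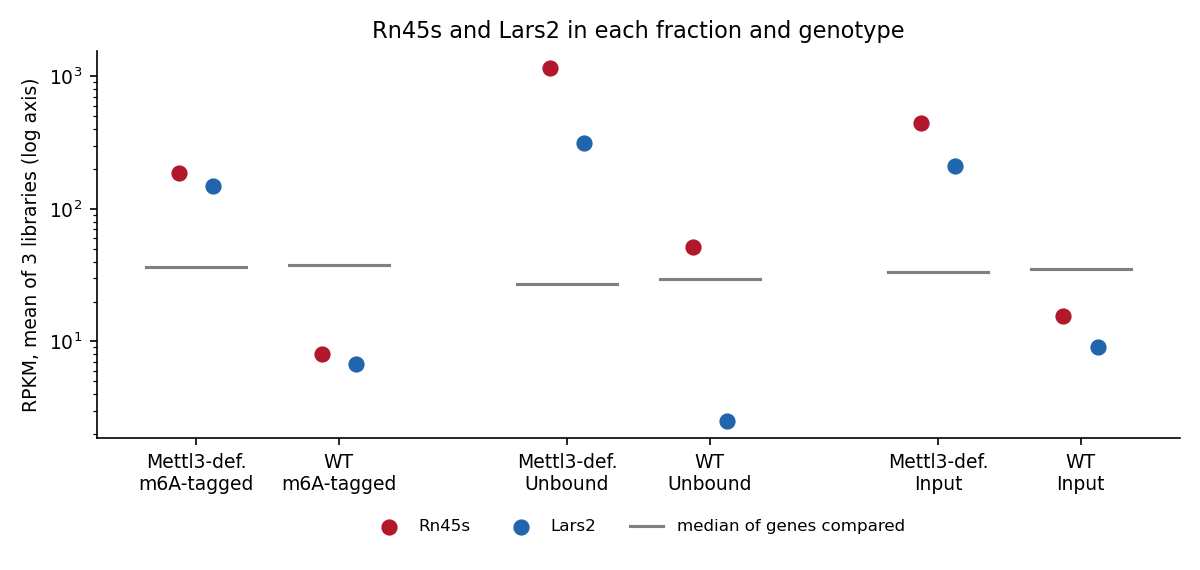
RPKM of Rn45s and Lars2 (log axis) in each fraction, with Mettl3-deficient beside WT, each point the authors' mean of 3 libraries. The grey lines are the median of the 6295 genes compared, and both genes lie above it in every Mettl3-deficient column, while in WT cells the unbound Rn45s value of 51.3 RPKM is the only one above it.

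A typical gene was used as a yardstick. The 6295 genes that averaged 10 RPKM or more across the 6 columns are called the genes compared, and their median was 36.3, 27.3 and 33.5 RPKM in Mettl3-deficient m6A-tagged, unbound and input RNA, against 38.1, 29.8 and 35.2 RPKM in WT. Rn45s was 5.11, 42.1 and 13.4 times this median in the Mettl3-deficient fractions, against 0.210, 1.72 and 0.440 times in WT. Lars2 was 4.14, 11.6 and 6.34 times it in the Mettl3-deficient fractions, against 0.176, 0.0843 and 0.258 times in WT. Both genes passed the 10 RPKM minimum, which they did through their Mettl3-deficient columns, and in WT 5 of their 6 values were under that column's median.

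Even so the pair held a small part of the signal. Of the summed RPKM of all genes, in which reads count per unit of gene length, Rn45s and Lars2 together took 0.0722% in Mettl3-deficient m6A-tagged RNA, 0.220% in unbound RNA and 0.139% in input, against 0.00322%, 0.00947% and 0.00527% in WT. In every column the share was well under 1%. The gene lengths behind the 2 RPKM values could not be worked out, so the share of reads is not known.

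The genotype difference was then set against that of all genes compared. Differences are on the scale log2(RPKM + 1), which understates changes at low values, and a gene was called higher or lower past 2-fold. Rn45s was 20.7-fold higher in Mettl3-deficient m6A-tagged RNA (log2 ratio 4.37), 22.0-fold higher in unbound RNA (4.46) and 27.2-fold higher in input (4.77). Lars2 was 19.6-fold higher in Mettl3-deficient m6A-tagged RNA (log2 ratio 4.29), 90.3-fold higher in unbound RNA (6.50) and 21.2-fold higher in input (4.40). Both genes were thus called higher in every fraction, where 6.02% of the genes compared were called higher in m6A-tagged RNA, 19.7% in unbound RNA and 2.38% in input. Nothing is read from these counts, because the pair was chosen on this contrast. Ordered from the highest ratio down, Rn45s was at place 2, 15 and 2 and Lars2 at place 3, 1 and 3 of 6295 in the m6A-tagged, unbound and input comparisons.

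In all 3 fractions at once, 44 genes (0.699%) were 2-fold higher in Mettl3-deficient cells, and 3 genes (0.0477%) were 10-fold higher. These 3 were Rn45s, Lars2 and Nov, which encodes a secreted matricellular protein and is named here because of its values. Nov stood at 31.9, 11.1 and 24.7 RPKM in Mettl3-deficient m6A-tagged, unbound and input RNA, against 0.0129, 0.0162 and 0.266 RPKM in WT. It therefore differed from Rn45s and Lars2 in level, since its highest column was below the lowest Mettl3-deficient column of either and its WT values were near 0. Ordered by the smallest of the 3 log2 ratios, Rn45s came first at 4.37, Lars2 next at 4.29 and Nov after them at 3.57.

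**Figure D2:**
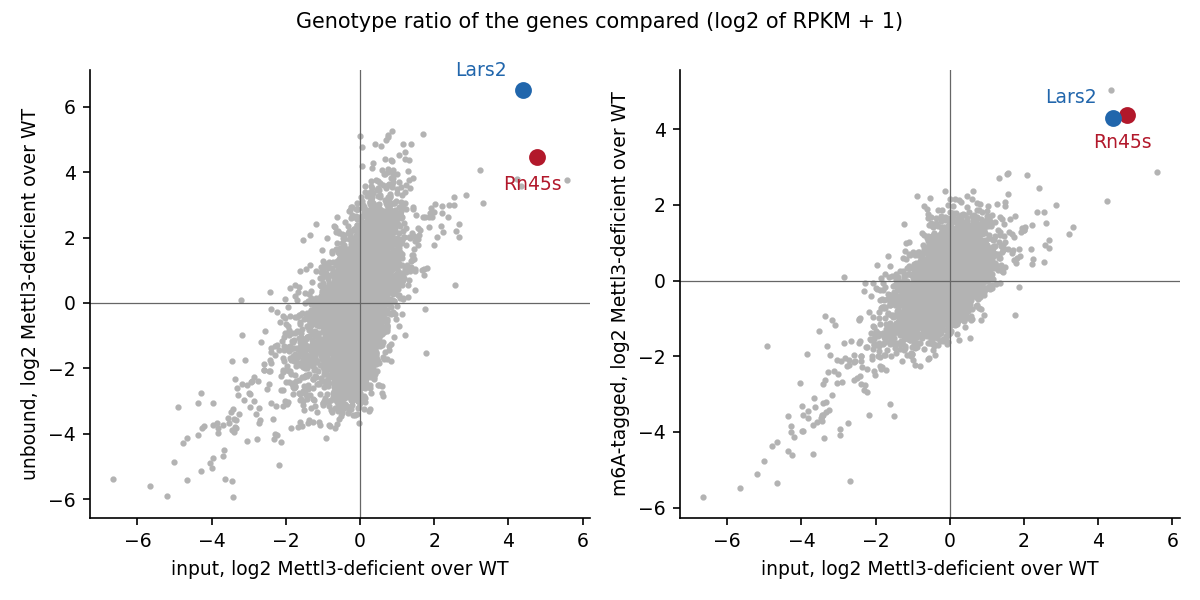
Log2 ratio of Mettl3-deficient over WT for the 6295 genes compared (RPKM + 1), with input on the horizontal axes and unbound (left) or m6A-tagged RNA (right) on the vertical axes. Rn45s and Lars2 lie at the upper right of both panels, with log2 ratios between 4.29 and 6.50, apart from most genes.

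The means alone bound what single libraries could hold. A mean of 3 libraries cannot be less than 1 of them divided by 3, so no WT library exceeded 24, 154 and 46.5 RPKM of Rn45s in m6A-tagged, unbound and input RNA. At least 1 Mettl3-deficient library of each fraction reached the mean given above. The highest Mettl3-deficient library therefore held at least 7.71 times the Rn45s RPKM of the highest WT library in m6A-tagged RNA, 7.47 times in unbound RNA and 9.65 times in input. For Lars2 these least ratios were 7.46, 42.0 and 7.80 in the same fractions. They hold even if 1 library carried a whole WT column. Whether all 3 Mettl3-deficient libraries were high, or 1 of them alone, cannot be told from a mean. Mettl3-deficient values over 3 times WT, the size that gives such a bound, were found for 1.65% of the genes compared in m6A-tagged RNA, 12% in unbound RNA, 0.731% in input and 0.254% in all 3 fractions.

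Other measures moved with genotype as well. Depth ran lower in Mettl3-deficient than in WT libraries in input, with a lowest library of 9.42 M against 28.33 M reads, and in unbound RNA, with a lowest library of 12.24 M against 24.3 M. Markers of other blood cells, of which 15 of 18 symbols were listed, summed to 202, 210.5 and 171 RPKM in Mettl3-deficient m6A-tagged, unbound and input RNA, against 1663, 2766 and 2006 RPKM in WT. The largest in WT input were the neutrophil granule genes Mpo, Ltf and Elane, at 62.1, 58.5 and 36.8 RPKM in Mettl3-deficient input and 653, 635 and 592 RPKM in WT input. All 6 of these markers that passed the 10 RPKM minimum were called lower in every fraction. The T cell markers Cd3e and Cd8a had no read in any library, while Cd4, also a listed T cell marker, had reads. Cd4 stood at 1.03, 0.0909 and 1.32 RPKM in Mettl3-deficient m6A-tagged, unbound and input RNA, against 0.00762, 0.150 and 0.602 RPKM in WT. The part of depth or of these cells in the Rn45s and Lars2 values was not tested. In bulk RNA, fewer cells of a type and less RNA per cell cannot be told apart.

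The fractions of each genotype were compared next. Rn45s was lower in m6A-tagged than in unbound RNA in both genotypes, by 6.19-fold in Mettl3-deficient cells (log2 ratio -2.63) and by 5.81-fold in WT cells (-2.54). Past 2-fold lower in this comparison were 16.9% of genes in Mettl3-deficient and 19.3% in WT cells. Rn45s was at place 77 from the lowest of 6295 ratios in Mettl3-deficient cells and at place 47 in WT cells. The ratio thus lay near the low end in both genotypes although the levels differed more than 20-fold.

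Against input, Rn45s in m6A-tagged RNA was 2.41-fold lower in Mettl3-deficient cells (log2 ratio -1.27), where 1.45% of genes were called lower and Rn45s was at place 40 from the lowest. In WT cells it was 1.83-fold lower (-0.87) and was not called, with 5.23% of genes called lower. In unbound RNA over input, Rn45s was 2.56-fold higher in Mettl3-deficient cells (1.36) and 3.17-fold higher in WT cells (1.67). Called higher in this comparison were 18.5% of genes in Mettl3-deficient and 4.61% in WT cells. It was at place 690 from the highest in Mettl3-deficient cells and at place 2 in WT cells. Under scaling of the columns to equal sums the ratio in Mettl3-deficient cells was 0.87, and the call was lost. These contrasts share the input or the unbound column and are not separate results.

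Lars2 did not follow Rn45s between fractions in WT cells. In m6A-tagged over unbound RNA it was 2.10-fold lower in Mettl3-deficient cells (log2 ratio -1.07) but 2.19-fold higher in WT cells (1.13), where 31.5% of genes were called higher. In unbound over input it was higher by 0.57 on the log2 scale in Mettl3-deficient cells, under 2-fold, and 2.87-fold lower in WT cells (-1.52), where 25.5% of genes were called lower. In m6A-tagged over input its log2 ratio was -0.50 in Mettl3-deficient cells and -0.39 in WT cells, both under 2-fold. The WT ratios with unbound RNA rest on a column of 2.52 RPKM, and with 5 RPKM added they were 0.64 and -0.91, both under 2-fold. The Mettl3-deficient call in m6A-tagged over unbound RNA was lost with upper-quartile scaling (-0.91) and with equal sums (-0.56).

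**Figure D3:**
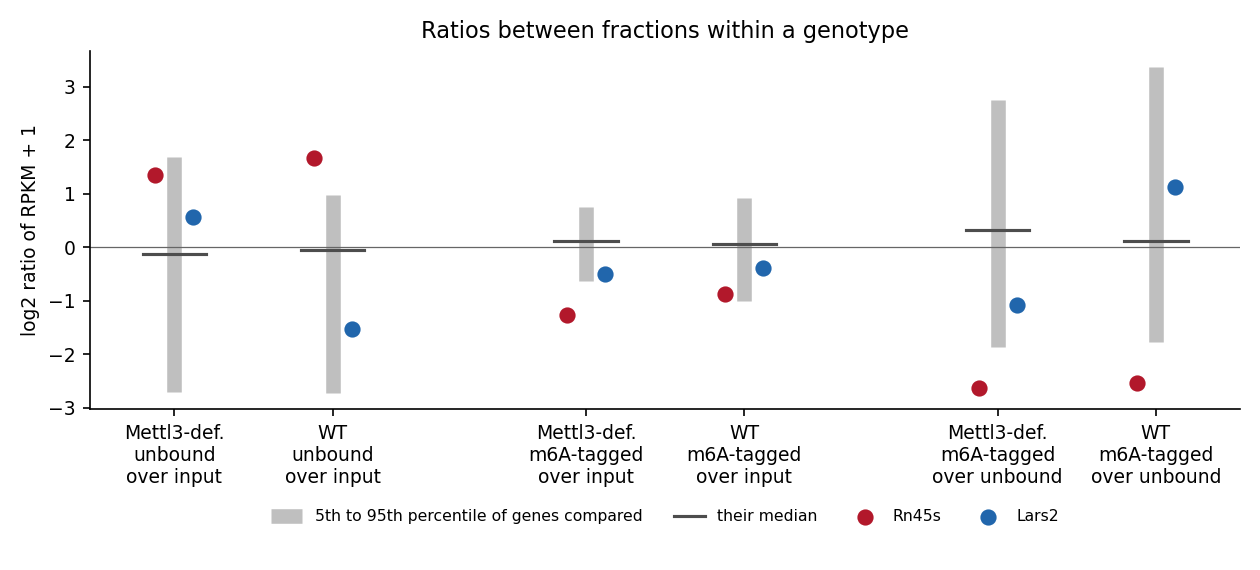
Log2 ratio between fractions (RPKM + 1) for Rn45s and Lars2, with Mettl3-deficient to the left of WT in each pair. Grey bars span the 5th to 95th percentile of the genes compared and short lines mark their median. Rn45s lies low for m6A-tagged over unbound RNA in both genotypes (-2.63 and -2.54), and Lars2 lies on opposite sides of 0 there (-1.07 and 1.13).

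The design implies a further comparison, the Mettl3-deficient fraction ratio minus the WT one. RPKM is relative within a column, so a loss of m6A shared by most genes need not appear in it. Its median over all genes compared was 0.04 for m6A-tagged over input and -0.01 for m6A-tagged over unbound. Dependence on Mettl3 was not tested. For Rn45s this difference was -0.40 for m6A-tagged over input, -0.09 for m6A-tagged over unbound and -0.31 for unbound over input, on the log2 scale. None passed 2-fold, and the sign of the difference for m6A-tagged over unbound turned to 0.032 with 0.1 RPKM added and to 0.13 with equal sums. In m6A-tagged over input, 2.91% of genes passed 2-fold in the lower direction. For Lars2 the difference was -0.11 for m6A-tagged over input, -2.20 for m6A-tagged over unbound and 2.09 for unbound over input. The last 2 were past 2-fold, as were 22.8% of genes in the lower direction for m6A-tagged over unbound and 18.8% in the higher direction for unbound over input. Both rest on the low WT unbound value of Lars2.

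The ratio of the 2 genes within a column was compared across columns. RPKM of Rn45s was 1.23, 3.63 and 2.11 times that of Lars2 in Mettl3-deficient m6A-tagged, unbound and input RNA, against 1.19, 20.4 and 1.70 times in WT. The ratio was near that of the other genotype in m6A-tagged RNA and in input, while in unbound RNA it was higher than in the other fractions in both genotypes, and highest in WT. The source of the reads was not tested.

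Lars2 was set beside its gene family, the synthetases that load amino acids onto mitochondrial tRNAs. The other 16 listed members spanned 3.34 to 49.4 RPKM in Mettl3-deficient input, where the highest was Cars2, the cysteinyl enzyme. Lars2 was above all 16 in each Mettl3-deficient fraction, and in WT cells 15, 12 and 13 of the 16 were above Lars2 in m6A-tagged, unbound and input RNA. Of the 13 that passed the 10 RPKM minimum, none was called in either direction in m6A-tagged RNA or input, where 7.15% and 6.67% of all genes were called lower and 6.02% and 2.38% higher. In unbound RNA 1 was higher and 3 were lower, where 19.7% and 22.7% of all genes were. The family's median log2 ratio of Mettl3-deficient over WT was 0.06 in m6A-tagged RNA, -0.30 in unbound RNA and -0.12 in input, beside -0.01, 0.02 and -0.05 for all genes compared. In input the highest were the alanyl enzyme Aars2 (0.77) and the glutamyl enzyme Ears2 (0.64), and the lowest the valyl enzyme Vars2 (-0.97) and the arginyl enzyme Rars2 (-0.42). In unbound RNA the highest were Ears2 (2.58) and the phenylalanyl enzyme Fars2 (0.78), and the lowest Vars2 (-1.91) and the isoleucyl enzyme Iars2 (-1.64). In m6A-tagged RNA the highest were Fars2 (0.85) and Aars2 (0.77), and the lowest was the asparaginyl enzyme Nars2 (-0.98).

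**Figure D4:**
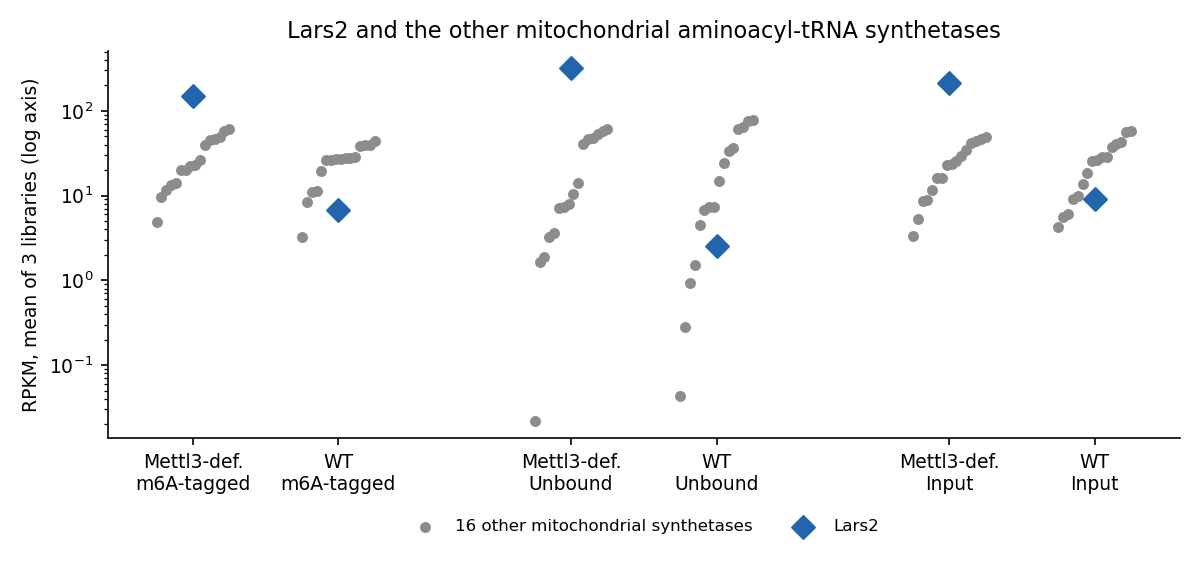
RPKM (log axis) of Lars2 and of the 16 other listed mitochondrial aminoacyl-tRNA synthetases in each fraction, with Mettl3-deficient beside WT. Lars2 is above every other member in each Mettl3-deficient column, at 150.0, 317 and 213 RPKM, and among the lower members in the WT columns.

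Lars, which loads leucine onto tRNAs of the cytosol, stood at 42.6, 12.6 and 43.0 RPKM in Mettl3-deficient m6A-tagged, unbound and input RNA, against 41.7, 41.2 and 41.4 RPKM in WT. Its log2 ratio was 0.03 in m6A-tagged RNA, -1.63 in unbound RNA and 0.05 in input, so in unbound RNA it lay on the other side of 0 from Lars2. Qrsl1 and Gatc, subunits of the amidotransferase that completes the glutamine tRNA of mitochondria, had log2 ratios of -0.06 and -0.16 in input, 0.05 and 1.33 in unbound RNA, and 0.60 and -0.23 in m6A-tagged RNA. The genes next to Lars2 on chromosome 9 did not share its levels. Tmem158, a membrane protein gene at 123259057 to 123260789, stood at 9.41, 7.16 and 3.86 RPKM in Mettl3-deficient m6A-tagged, unbound and input RNA, against 14.1, 10.1 and 9.88 RPKM in WT. Limd1, a LIM domain scaffold gene at 123478661 to 123521552, stood at 19.9, 3.78 and 18.3 RPKM in the Mettl3-deficient fractions, against 24.3, 0.564 and 12.5 RPKM in WT. In m6A-tagged, unbound and input RNA the log2 ratios were -0.54, -0.45 and -1.16 for Tmem158 and -0.28, 1.61 and 0.51 for Limd1. Limd1 was thus past 2-fold higher in unbound RNA, as were Lars2 and 19.7% of the genes compared.

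Other RNAs that lack a poly(A) tail were then described. Of 33 such symbols, small nuclear, nucleolar and other structural RNAs among them, 8 were listed, none averaged 10 RPKM, and the highest value in any column was 4.14 RPKM. At these low values the reads of each library could be solved, for all 144 values of 8 genes in 18 libraries, and 110 of these were 0. Over the 9 libraries of a genotype the 8 genes had 56 reads in Mettl3-deficient cells and 225 in WT cells. Vaultrc5, a vault RNA, had 10 reads in Mettl3-deficient cells against 92 in WT cells, and Terc, the RNA template of telomerase, had 11 against 57. Rpph1, the RNA of the enzyme that trims tRNA precursors at their start, had 31 reads in Mettl3-deficient cells and 27 in WT cells, and 30 of the 31 came from 1 unbound library.

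Rmrp, the RNA of a related enzyme that cuts the ribosomal precursor, and Rnu6, a spliceosomal RNA, had 0 reads in all 18 libraries. For Rmrp a count of 0 allows up to 3 reads, or 0.293 to 1.16 RPKM depending on the depth of the library, and for the shorter Rnu6 it allows 2.99 to 11.8 RPKM. These limits cover counting error only. WT libraries ran deeper in unbound RNA and input, and per M reads the 8 genes had 0.273 reads in Mettl3-deficient and 0.814 reads in WT cells. Summed over the 8 genes, reads were thus fewer in Mettl3-deficient than in WT libraries, at counts so low that several rest on 1 library. The 8 RNAs were short, from 27 bases for Rnu6 to 397 bases for Terc. How well RNA of such length was kept in the libraries was not tested, so nothing about Rn45s is read from them. The other symbols were not analysed here.

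The machinery that makes ribosomal RNA was described next. Of 16 listed genes of RNA polymerase I and its factors, 13 were compared, and none was called in m6A-tagged RNA or input. Of all genes compared, 6.02% were called higher and 7.15% lower in m6A-tagged RNA, and 2.38% higher and 6.67% lower in input, so with 13 genes a count of 0 is near the background. Their median log2 ratio of Mettl3-deficient over WT was -0.21 in m6A-tagged RNA, 0.51 in unbound RNA and 0.19 in input. In input the highest were Taf1c (0.56), a subunit of the promoter selectivity factor, and the polymerase subunit Polr1d (0.49), and the lowest were Taf1d (-0.73), also of that factor, and the polymerase subunit Znrd1 (-0.33). In unbound RNA 3 were called higher and 3 lower, near the 19.7% and 22.7% of all genes. Taf1c (2.37) and the polymerase subunit Twistnb (1.28) were the highest there, and the topoisomerase Top1 (-2.59) and the initiation factor Rrn3 (-2.24) the lowest. In m6A-tagged RNA the highest were Taf1c (0.90) and the polymerase subunit Polr1c (0.68), and the lowest Taf1d (-0.80) and Twistnb (-0.74).

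Of genes of ribosomal RNA processing and ribosome assembly, 39 were listed and 36 were compared. None was called in input, 2 were called higher and 1 lower in m6A-tagged RNA, and 3 were called higher and 18 lower in unbound RNA. Of all genes compared, 2.38% were called higher and 6.67% lower in input, 6.02% and 7.15% in m6A-tagged RNA, and 19.7% and 22.7% in unbound RNA. Their median log2 ratio was -0.05 in m6A-tagged RNA, -1.0 in unbound RNA and -0.04 in input. The highest in input were the methyltransferase Nop2 (0.83) and the large subunit assembly factor Bop1 (0.49), and the lowest were the small subunit factors Nop14 (-0.59) and Utp14a (-0.56). In unbound RNA the assembly factor Rrs1 (2.19) and Nop10 (1.11), of the pseudouridine-forming particles, were the highest, and Nop14 (-3.15) and the nucleolar protein Mybbp1a (-2.51) the lowest. In m6A-tagged RNA the highest were the small subunit factors Wdr75 (1.06) and Rrp9 (1.01), and the lowest were the RNA helicase Ddx21 (-1.42) and the nucleolin gene Ncl (-0.75). Rn45s and the median of these genes thus lay on opposite sides of 0 in unbound RNA.

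The m6A enzymes of ribosomal RNA were within 2-fold between the genotypes. Mettl5 stood at 19.5, 22.9 and 21.4 RPKM in Mettl3-deficient m6A-tagged, unbound and input RNA, against 27.5, 34.5 and 29.8 RPKM in WT. Its partner Trmt112 stood at 30.5, 56.1 and 22.3 RPKM in the Mettl3-deficient fractions, against 34.2, 46.8 and 29.1 RPKM in WT. Zcchc4 stood at 5.97, 3.66 and 4.21 RPKM in the Mettl3-deficient fractions, against 3.97, 4.14 and 5.22 RPKM in WT, and was under the 10 RPKM minimum.

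Genes with a pattern like that of Rn45s were named by the correlation of log2(RPKM + 1) over the 6 columns, which share 2 genotypes and 3 fractions. The 5 closest to Rn45s were 2310003L22Rik (Pearson r 0.993), the chromatin-associated acidic protein gene Ptma (0.992), 2610318N02Rik (0.979), the ubiquitin-like modifier gene Sumo3 (0.977) and the beta-actin gene Actb (0.976). Ptma stood at 414, 740.4 and 561 RPKM in Mettl3-deficient m6A-tagged, unbound and input RNA, against 219.7, 357 and 242 RPKM in WT, so the order of the columns was alike and the genotype difference far smaller. The 5 closest to Lars2 were the transcription factor subunit gene Gtf2f2 (0.995), the cathepsin gene Ctsz (0.987), the vesicle protein gene Syngr2 (0.974), the calcium-binding protein gene Pef1 (0.973) and the membrane anchor transferase gene Pigk (0.972). Gtf2f2 stood at 72.8, 105 and 98.4 RPKM in the Mettl3-deficient fractions, against 29.6, 24.2 and 31.8 RPKM in WT. Rn45s and Lars2 correlated with each other at 0.877, which put Lars2 at place 87 for Rn45s and Rn45s at place 77 for Lars2. With 6 columns and 6295 genes, high values of r arise easily, and they are given as a description.

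By mean RPKM over the 6 columns Rn45s was at place 249 and Lars2 at place 1010 of all genes. The neighbours of Rn45s were Bcap31, a protein of the endoplasmic reticulum (311 RPKM on average), and the tubulin gene Tubb4b (309 RPKM). Bcap31 spanned 207 to 379.9 RPKM over the Mettl3-deficient columns and 273 to 463 RPKM over the WT columns. Tubb4b spanned 254.5 to 499.8 RPKM over the Mettl3-deficient columns and 110 to 352 RPKM over the WT columns. The neighbours of Lars2 were Slbp, which binds histone messenger RNA, and the collagen-modifying Crtap, both at 116 RPKM on average. Slbp spanned 105 to 123 RPKM over the Mettl3-deficient columns and 109 to 124 RPKM over the WT columns. Crtap spanned 100.3 to 133.8 RPKM over the Mettl3-deficient columns and 50.5 to 183 RPKM over the WT columns.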

How the data were processed

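RNA of m6A-tagged, unbound and input fractions of sorted HSCs was sequenced as paired 150 bp reads after Smart-seq2 amplification, per the labels' protocols. The build was mm10 and the tools named are Picard and edgeR, with no role stated, per the submitters' processing notes. Aligner and counter: not given in the sources used here. Deposited values are RPKM, in a table for each genotype with a column for each fraction. By their values, columns are means over 3 libraries, after 1 read had been added per gene and library. Tables were joined on gene ID, and 11 rows without an ID were dropped. Ratios are log2((RPKM + 1)/(RPKM + 1)) over 6295 genes averaging 10 RPKM or more, and a call is 2-fold. Both tables share 1 formula and 1 set of gene lengths. Summed RPKM still differed between columns, from 457236 in WT m6A-tagged RNA to 665704 in Mettl3-deficient unbound RNA. Ratios between columns therefore depend on how the columns are scaled. Library depths were solved from the values, a step tested on simulated data, and the reads of low genes from those depths. Means without replicate values allow no test, so no p-value is given.

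The genes and lists were chosen with earlier results of these data known. The rule for named genes took, besides Rn45s and Lars2, Mettl3, the members of short lists or the 2 highest and 2 lowest by ratio of longer ones, 5 genes of like pattern, and neighbours by mean RPKM and on the chromosome; Nov was named after its values were seen. A gene that this rule names is not reported here. Of 23038 gene IDs, 22959 matched the RefSeq table (GRCm38.p6), which gave the coordinates. Python 3.11.15, numpy 2.4.6, pandas 2.3.3 and matplotlib 3.10.9 were used. Alternatives changed the added RPKM, the minimum and the column scaling.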

Additional observations from a re-analysis of the deposited data

How the results depend on the processing

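The Mettl3-deficient over WT calls of Rn45s and Lars2 held in every fraction under each alternative run. For Rn45s the fold ranged from 14.6 to 22.9 in m6A-tagged RNA, 18.8 to 24.6 in unbound RNA and 22.1 to 28.8 in input, and for Lars2 from 13.2 to 22.1, 42.8 to 121 and 15.4 to 23.1. The difference between genotypes in Rn45s m6A-tagged over unbound RNA changed sign, from -0.09, to 0.032 with 0.1 RPKM added and to 0.13 with columns scaled to equal summed RPKM, with or without Rn45s and Lars2 in the sum (the last was chosen after seeing the data). With 5 RPKM added, Lars2 in WT cells lost its calls in m6A-tagged over unbound (0.64) and unbound over input (-0.91). Lars2 m6A-tagged over unbound in Mettl3-deficient cells was -0.91 with upper-quartile scaling and -0.56 with equal sums under both sums, and Rn45s unbound over input in Mettl3-deficient cells was 0.87 under both. The cause was not tested.

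The shares of all genes called moved by more than 1.5 times as follows. With no minimum RPKM, Mettl3-deficient over WT was called higher for 3.73% in m6A-tagged RNA, 8.20% in unbound RNA and 1.23% in input. In Mettl3-deficient cells 0.634% were called lower in m6A-tagged over input, 5.46% lower in m6A-tagged over unbound and 6.05% higher in unbound over input, and in WT cells 6.94% lower in m6A-tagged over unbound and 1.76% higher in unbound over input. For the genotype difference 12.4% were lower in m6A-tagged over unbound and 9.32% higher in unbound over input. With a minimum of 50 RPKM, in Mettl3-deficient cells 2.86% were lower in m6A-tagged over input, 31.2% lower in m6A-tagged over unbound and 33.1% higher in unbound over input. In WT cells 14.9% were higher and 31.8% lower in m6A-tagged over unbound, and 8.17% higher and 10.3% lower in unbound over input. Upper-quartile scaling gave 0.699% higher in WT unbound over input. With equal sums, 8.63% were lower in m6A-tagged over unbound and 8.26% higher in unbound over input in Mettl3-deficient cells (8.67% and 8.28% without the pair in the sum), and 12.5% and 0.429% in WT cells under both sums.

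Scaling moved the median log2 ratio of all genes by more than 0.1 in most comparisons with unbound RNA, and in Mettl3-deficient m6A-tagged over input, from 0.12 as deposited to -0.0017 with median-ratio and 0.013 with upper-quartile scaling. With equal sums it was -0.19 for Mettl3-deficient over WT unbound RNA, against 0.02 as deposited, and with median-ratio scaling 0.18. For m6A-tagged over unbound, equal sums gave 0.83 in Mettl3-deficient and 0.42 in WT cells, against 0.33 and 0.12 as deposited. For unbound over input they gave -0.59 in Mettl3-deficient and -0.33 in WT cells, against -0.13 and -0.052 as deposited. The minimum of 50 RPKM turned these medians round, to -0.40 in Mettl3-deficient and -0.55 in WT cells for m6A-tagged over unbound, and to 0.51 and 0.44 for unbound over input. Medians of the gene lists gave 14 values, over all comparisons and alternatives, that moved past the limit set for them, and 442 that did not. No paired analysis was possible because each group has 1 pooled column that carries no replicate number, and leaving out a replicate was not run for the same reason. Scaling to reads outside the pair was not run, since the lengths of both genes are unknown. Depth limits the structural RNAs, for which 110 of the 144 library values were 0 reads.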
